A study of Mus musculus with 2 samples.

Results

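Acetylcholine acts through nicotinic receptors, which are pentameric ion channels, and muscarinic receptors, which couple to G proteins. The transcripts of 10 receptor genes were measured by total RNA sequencing of mouse adrenal gland, 8 of them nicotinic subunits (Chrna3, Chrna5, Chrnb4, Chrnb2, Chrna7, Chrna4, Chrna1 and Chrnb1) and 2 muscarinic receptors (Chrm3 and Chrm4). They were chosen by gene symbol from 55536 annotated genes. All animals were male B6CASTF1/J mice, a first-generation cross between a laboratory strain and a wild-derived strain, at an age of 25 days. There was 1 group of 2 libraries and no treatment or genotype contrast, so the results are levels, their spread and differences between the libraries. Replicates 1 and 2 come from animals 3 and 4 according to the biosample labels, but a further label gives animal 3 for each and the donor identifier is shared. Differences between the libraries may therefore be technical.

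In the adrenal medulla, preganglionic nerve endings release acetylcholine onto chromaffin cells, which answer by secreting catecholamines. The fast signal runs through nicotinic channels of the neuronal type, classically built from alpha3 and beta4 subunits, with alpha5 as an accessory. Homomeric alpha7 channels and alpha4 with beta2 channels are best known from neurons. The subunits alpha1 and beta1 belong to the receptor of skeletal muscle, and M3 and M4 are muscarinic receptors coupled to Gq and Gi proteins. In bulk tissue, fewer cells of a type and less RNA per cell cannot be told apart.

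Alpha subunits carry an adjacent pair of cysteines at the agonist site, and the coding stretches around it show which members are of this class. Each stretch has 48 bases of the annotated coding sequence (GENCODE M21, mm10), within a single exon, with the codons of both cysteines in capitals.
Chrna3: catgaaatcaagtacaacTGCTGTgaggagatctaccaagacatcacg
Chrna5: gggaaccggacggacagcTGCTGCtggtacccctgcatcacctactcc
Chrna7: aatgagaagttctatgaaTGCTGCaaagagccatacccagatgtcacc
Chrna4: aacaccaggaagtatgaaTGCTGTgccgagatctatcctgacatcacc
Chrna1: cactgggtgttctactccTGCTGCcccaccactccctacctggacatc
They lie at chr9:55015830-55015877 on the minus strand for Chrna3, chr9:55004599-55004646 on the plus strand for Chrna5, and on the minus strand at chr7:63106134-63106181 for Chrna7, chr2:181029254-181029301 for Chrna4 and chr2:73570522-73570569 for Chrna1. Set side by side without gaps, Chrna3 shared 32 of 48 bases with Chrna4, 28 with Chrna7, 20 with Chrna5 and 17 with Chrna1. After the pair, the codons of Chrna5 and Chrna1 are out of step with those of Chrna3, which can lower these counts of shared bases. The coding sequences of Chrnb4, Chrnb2 and Chrnb1 held 0 adjacent cysteine pairs.

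Of the 35283841 and 35156690 expected counts in replicates 1 and 2, the 10 receptor genes held 1839 and 1464, all whole numbers with a deposited posterior SD of 0, so no read was divided between a member and another gene. Markers of the labelled tissue were present: all 6 cortex markers and all 8 chromaffin markers reached 1 TPM (a level scaled by transcript length and library total) in both libraries. The chromaffin list summed to 1620 TPM in replicate 1, against 1102 TPM in replicate 2. The cortex list summed to 12248 and 6742 TPM, the 5 Schwann and sustentacular markers to 13.3 and 22.2 TPM, and the 4 smooth muscle markers to 40.8 and 23.9 TPM. Transcripts of other tissues differed sharply. The 9 skeletal muscle markers summed to 1258 TPM in replicate 1, against 1.75 TPM in replicate 2, and the 6 liver markers to 25.5 and 19574 TPM. Myh2 and Tnni2 of the muscle list had 0 counts in replicate 2. The part of these tissues in the levels given here was not tested.

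The receptor genes had low TPM values. Nuclear protein-coding genes held only 32.8% and 35.5% of TPM in replicates 1 and 2, which lowers the TPM of each such gene. Among these genes, Chrna7 stood at percentile 57.2 by mean TPM and Chrna3 at 53.5. The other members lay between 26.9 for Chrna1 and 47.3 for Chrnb4. At least 1 TPM in both libraries was reached by 5 of 10, Chrna3, Chrnb4, Chrna7, Chrna4 and Chrm3, a share of 50% beside 54.1% of 22015 nuclear protein-coding genes. The alpha3 subunit gene Chrna3 (ENSMUSG00000032303.7, mm10 chromosome 9, 55010111 to 55026562, minus strand) was at 3.49 TPM in replicate 1, against 3.28 TPM in replicate 2, from 452 and 416 counts. Its partner Chrnb4, which encodes beta4 (ENSMUSG00000035200.7, 55028154 to 55048779, minus strand), was at 1.82 and 1.88 TPM, from 225 and 231 counts. Both genes gave nearly the same TPM in the libraries, though their ratios between libraries depended on the scaling, as given below. Chrna3 lay above Chrnb4 in each library, by 0.87 ± 0.10 on the log2 scale (SD, n = 2).

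The accessory subunit gene Chrna5 (ENSMUSG00000035594.10, 54980880 to 55007779, plus strand) was at 0.21 and 0.16 TPM, from 13 and 12 counts. It is the neighbour of Chrna3 in the same cluster, with 2331 bases between their annotated ends, while 1591 bases separate Chrna3 from Chrnb4. Despite this adjacency its level was well below theirs. The log2 ratio of Chrna3 over Chrna5 was 4.21 ± 0.21 and that of Chrnb4 over Chrna5 was 3.34 ± 0.31 (SD, n = 2 each). In the second quantification of the same reads Chrna5 was at 0.47 and 0.36 TPM, which narrowed the first of these ratios to 3.57 ± 0.16.

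**Figure D1:**
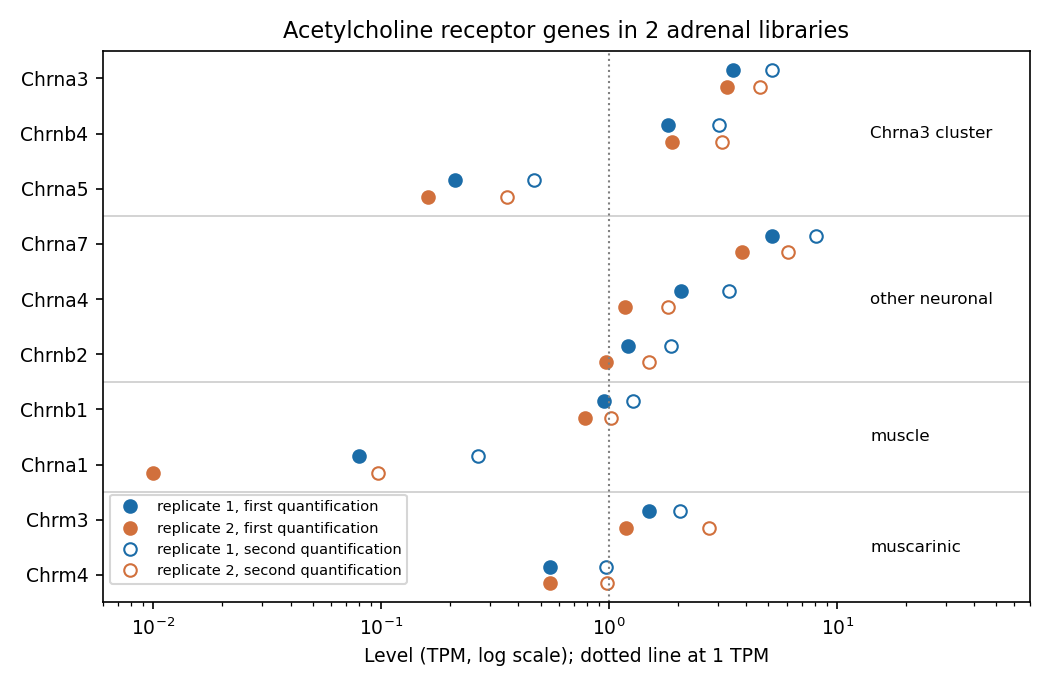
Levels of the 10 receptor genes in TPM on a log axis, grouped by role. Filled points are the first and open points the second quantification, blue is replicate 1 and orange replicate 2, and the dotted line marks 1 TPM. Chrna7 and Chrna3 lie furthest right and Chrna1, at 0.08 and 0.01 TPM in the first quantification, furthest left.

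Among the other neuronal subunits, Chrna7 was the most abundant receptor gene measured. The gene of the homomeric alpha7 channel (ENSMUSG00000030525.8, chromosome 7, 63098692 to 63212569, minus strand) was at 5.18 TPM in replicate 1, against 3.83 TPM in replicate 2, from 360 and 263 counts. Both values were above those of Chrna3, by 0.40 ± 0.24 on the log2 scale (SD, n = 2). Chrna4, the alpha4 gene (ENSMUSG00000027577.14, chromosome 2, 181018380 to 181043546, minus strand), was at 2.07 and 1.17 TPM, from 304 and 178 counts. Chrnb2, the beta2 gene (ENSMUSG00000027950.7, chromosome 3, 89746195 to 89764632, minus strand), was at 1.21 and 0.97 TPM, from 261 and 207 counts. Exons of Chrnb2 share 1365 bases, 16.3% of its exonic length, with exons of Adar on the opposite strand, a gene with 1457 and 1466 counts. Whether counting used the strand is not given in the sources used here. Counts of both genes were whole numbers, with a posterior SD of 0 for Chrnb2, so no read was divided between them. Whether each read of the shared stretch was given to the right gene was not tested.

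Of the muscle subunits, beta1 was the more abundant. Chrnb1, the beta1 gene (ENSMUSG00000041189.9, chromosome 11, 69784036 to 69795943, minus strand), was at 0.95 TPM in replicate 1, against 0.78 TPM in replicate 2, from 54 and 36 counts. Chrna1, the alpha1 gene (ENSMUSG00000027107.3, chromosome 2, 73563215 to 73580338, minus strand), was at 0.08 and 0.01 TPM. It had 11 counts in replicate 1 (95% exact Poisson interval 5.49 to 19.7) and 1 count in replicate 2 (0.03 to 5.57), intervals that cover counting error only. Chrnb1 was thus above Chrna1 in both libraries.

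Set against these, the Chrna3 cluster dominated. Chrna3, Chrna5 and Chrnb4 together held 5.52 and 5.32 TPM in replicates 1 and 2, and Chrna1 and Chrnb1 together held 1.03 and 0.79 TPM. The cluster exceeded the muscle subunits by 2.42 and 2.75 on the log2 scale, a mean of 2.59 ± 0.23 (SD, n = 2) or 6.01-fold. This difference was larger than the spread between the libraries, though 2 libraries allow no test below 0.5 (two-sided exact sign-flip test). Only protein-coding transcripts, a setting added after the data were seen, gave 3.20, and 1 TPM added to each sum gave 1.75.

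Of the muscarinic genes, Chrm3 lay between Chrna4 and Chrnb2 by mean TPM over all annotated transcripts, and Chrm4 below Chrnb1. Chrm3, whose product acts through Gq and phospholipase C (ENSMUSG00000046159.16, chromosome 13, 9875486 to 10360847, minus strand), was at 1.49 TPM in replicate 1, against 1.18 TPM in replicate 2, from 134 and 95 counts. Chrm4, whose product inhibits adenylyl cyclase (ENSMUSG00000040495.4, chromosome 2, 91927249 to 91928688, plus strand), was at 0.55 TPM in each, from 25 counts in each. The annotated Chrm4 model is its 1440 coding bases alone, so reads in untranslated parts were not counted. Over all annotated transcripts, Chrm3 exceeded Chrm4 by 1.27 ± 0.24 on the log2 scale (SD, n = 2). The gap was narrower for protein-coding transcripts, where Chrm3 held 0.76 and 0.57 TPM, beside 0.55 TPM for Chrm4 in both libraries. By that measure the genes were nearly level in replicate 2.

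By mean TPM the order was Chrna7, Chrna3, Chrnb4, Chrna4, Chrm3, Chrnb2, Chrnb1, Chrm4, Chrna5 and Chrna1, and the second quantification gave the same order of means. Of the neighbours in this order, Chrnb4 and Chrna4, and Chrna4 and Chrm3, had ranges that overlapped and an order that differed between the libraries, so they did not differ beyond their spread. Chrm3 and Chrnb2 had overlapping ranges in the first quantification, but Chrm3 was the higher in each library, and their ranges did not overlap in the second quantification. That order rests on transcripts of Chrm3 annotated as non-coding. On protein-coding transcripts alone, in the first quantification, Chrm3 was at 0.76 and 0.57 TPM and Chrnb2 at 1.21 and 0.97 TPM, the reverse order in each library. Chrnb2 and Chrnb1 were separated by only 0.02 TPM, the lowest value of Chrnb2 being 0.97 and the highest of Chrnb1 0.95. The other neighbours did not overlap. Levels in the second quantification were higher for all 10 genes, at 8.04 and 6.10 TPM for Chrna7 and 5.16 and 4.59 TPM for Chrna3.

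Transcripts of the genes were then examined, since a gene's TPM sums all of its annotated transcripts. Chrna3-201 held 75.9% of Chrna3 TPM in replicate 1 and 72.9% in replicate 2, and the shorter coding transcript Chrna3-202 held the rest. In the second quantification Chrna3-202 held 13.9% and 14.5%. Chrna7-201, the coding form, held 92.2% and 93.7% of Chrna7, beside a non-coding processed transcript. Chrnb4, Chrna1 and Chrm4 have 1 annotated transcript each, and Chrnb2-201 held 100% of Chrnb2 in each library. The split of Chrna5 rests on 13 and 12 counts and differed between the quantifications. Chrna5-201 held 66.4% and 0%, and Chrna5-204 held 15.2% and 77.0%, in the first, while Chrna5-204 held 63.6% and 87.3% in the second.

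In the first quantification, Chrm3 and Chrnb1 carried a larger part of their TPM than Chrna7 on transcripts annotated as non-coding. For Chrm3, coding transcripts held 0.76 of 1.49 TPM in replicate 1 and 0.57 of 1.18 TPM in replicate 2. The 584-base processed transcript Chrm3-203 held 36.5% and 22.0% from 9 and 4.28 counts, and the retained-intron transcript Chrm3-204 held 12.5% and 29.7%. For Chrnb1, coding transcripts held 0.70 of 0.95 TPM and 0.44 of 0.78 TPM, and retained-intron transcripts most of the rest. By counts, the coding Chrnb1-201 held 49.4 of 54 in replicate 1 and 30.4 of 36 in replicate 2, and in the second quantification it held 100% and 75.2% of TPM. Short transcripts gain TPM from few reads. In the second quantification, Chrm3 was at 2.04 and 2.73 TPM, the reverse order of the libraries, with Chrm3-203 at 0.34 and 1.05 TPM from 2.17 and 6.86 estimated counts.

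**Figure D2:**
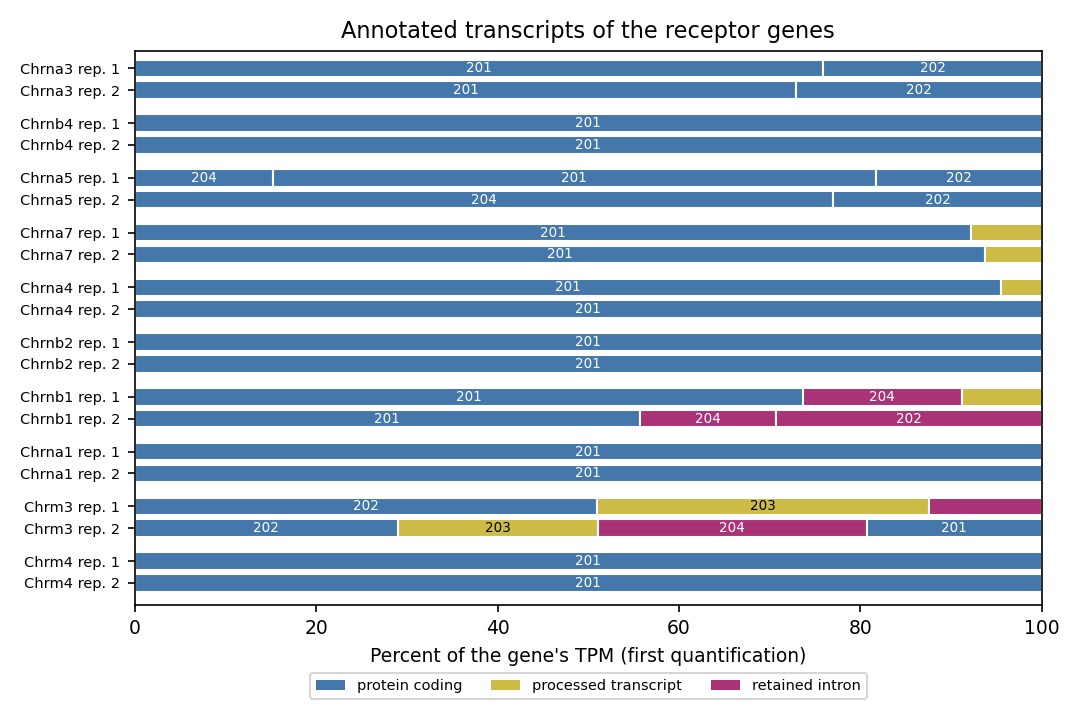
Share of each receptor gene's TPM on its annotated transcripts in the first quantification, in percent, with 1 bar per library. Colours give the annotated transcript type and numbers the transcript. Chrm3, Chrnb1 and, with a smaller share, Chrna7 show non-coding parts in both libraries, while Chrnb4, Chrnb2, Chrna1 and Chrm4 are on a single coding transcript.

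The libraries were compared gene by gene with a two-sided exact binomial test on counts scaled by the TMM method, with Benjamini-Hochberg adjustment over all 19801 genes that had at least 10 counts in total. All 10 receptor genes passed that count minimum. The test has 1 library on each side and covers counting error only. At an adjusted p of 0.05 it called 38.9% of all genes, 17.6% as higher in replicate 1 and 21.3% as lower. Of the 10 receptor genes, 2 were called, both as higher in replicate 1, and 0 as lower. Their median log2 ratio (replicate 1 over replicate 2) was 0.15, beside -0.002 over all genes tested.

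Chrna4 was higher in replicate 1, by 0.52 on the log2 scale with a 95% counting interval of 0.25 to 0.80 (adjusted p = 0.000465, exact binomial test). Its call held under the 3 other scalings, in the second quantification and with all genes of at least 1 count. Chrna1, with 11 and 1 counts, was 9.26-fold higher, with a counting interval of 1.35 to 399 (adjusted p = 0.0388, exact binomial test). That call was lost when all genes with at least 1 count were tested (adjusted p = 0.0509, exact binomial test) and in the second quantification, where 27.0 and 10.1 counts gave a log2 ratio of 1.19 (adjusted p = 0.0775, exact binomial test). All 9 skeletal muscle markers were also higher in replicate 1, the lowest log2 ratio being 7.70 for Mylpf, a fast-muscle myosin light chain. Acta1, skeletal muscle actin, had 19531 counts in replicate 1 and 3 in replicate 2. The part of muscle tissue in the Chrna1 value was not tested. Chrnb1 did not pass, at a log2 ratio of 0.34 (-0.30 to 0.99).

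The other members did not pass under TMM. Log2 ratios were -0.13 (-0.32 to 0.07) for Chrna3, -0.29 (-0.56 to -0.02) for Chrnb4 and -0.13 (-1.38 to 1.13) for Chrna5. They were 0.21 (-0.03 to 0.44) for Chrna7, 0.09 (-0.18 to 0.36) for Chrnb2, 0.25 (-0.14 to 0.64) for Chrm3 and -0.25 (-1.11 to 0.61) for Chrm4. Beside them, 7 of 8 chromaffin markers were higher in replicate 1, against 17.6% of all tested genes, with a median of 0.27. Th, tyrosine hydroxylase, was at 0.38 and Pnmt, which makes adrenaline, at 0.78. The signs depend on the scaling. Of all called genes 45.2% were higher in replicate 1 after TMM, 77.2% after scaling by total counts and 83.2% after scaling by spike-ins. The median log2 ratio of genes at a mean of 1 TPM or more moved with it, at 0.006 for TMM, 0.25 for total counts and 0.37 for spike-ins. Total counts put Chrna3 and Chrna5 at 0.11 each. Spike-ins put Chrna3 and Chrna5 at 0.24 each, Chrnb4 at 0.081 and Chrm4 at 0.12, all above 0. Calls were gained as well, all as higher in replicate 1. The share of all tested genes called rose too, from 38.9% under TMM to 55.7% with total counts and 64.1% with spike-ins. Chrnb2 (0.33), Chrna7 (0.45) and Chrm3 (0.49) passed with total counts, and with spike-ins Chrnb2 (0.45), Chrna7 (0.57) and Chrm3 (0.62) passed together with Chrnb1 (0.70) and Chrna3 (adjusted p = 0.0264, exact binomial test).

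**Figure D3:**
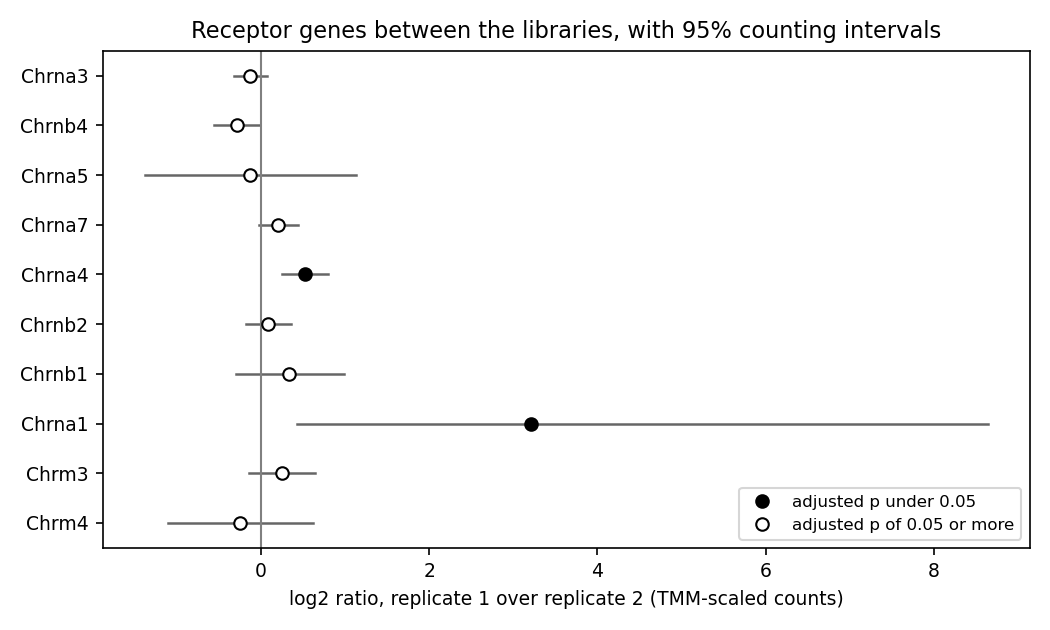
Log2 ratio of TMM-scaled counts, replicate 1 over replicate 2, for the 10 receptor genes, with 95% exact counting intervals as lines. Filled points have an adjusted p under 0.05: Chrna4 at 0.52 and Chrna1 at 3.21, whose interval is the widest.

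Start regions of Chrna3, Chrna5 and the muscle alpha subunit gene Chrna1 are shown, with motif counts for Chrnb4 and the muscle gene Chrnb1 below. Each is the 250 bases before the RefSeq start (GRCm38.p6), read on the gene's strand. Capitals mark the E-box CANNTG, which is bound by basic helix-loop-helix factors, and the GC box GGGCGG or its reverse complement CCGCCC, bound by Sp factors. Both strands were searched, and matches may overlap.
Chrna3: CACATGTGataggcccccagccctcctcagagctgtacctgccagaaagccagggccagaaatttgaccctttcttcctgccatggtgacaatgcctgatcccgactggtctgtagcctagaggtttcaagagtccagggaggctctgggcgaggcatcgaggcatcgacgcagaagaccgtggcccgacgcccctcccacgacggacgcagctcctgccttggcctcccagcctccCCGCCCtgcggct
Chrna5: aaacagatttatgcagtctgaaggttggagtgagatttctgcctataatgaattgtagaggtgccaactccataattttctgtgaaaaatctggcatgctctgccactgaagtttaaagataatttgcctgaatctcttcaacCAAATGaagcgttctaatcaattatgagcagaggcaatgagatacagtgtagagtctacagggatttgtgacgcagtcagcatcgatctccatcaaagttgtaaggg
Chrna1: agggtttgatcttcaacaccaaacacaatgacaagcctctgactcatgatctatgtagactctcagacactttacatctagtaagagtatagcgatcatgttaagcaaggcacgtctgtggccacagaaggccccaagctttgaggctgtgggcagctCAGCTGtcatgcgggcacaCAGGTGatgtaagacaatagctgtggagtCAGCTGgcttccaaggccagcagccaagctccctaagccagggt
They span chr9:55026563-55026812 on the minus strand for Chrna3, chr9:54980630-54980879 on the plus strand for Chrna5 and chr2:73580339-73580588 on the minus strand for Chrna1. Chrna1 held 3 E-boxes and 0 GC boxes, Chrna3 held 2 overlapping E-boxes and 1 GC box, and Chrna5 held 1 E-box and 0 GC boxes. RefSeq gives Chrna5 a further start, whose window (54981238 to 54981487) held 4 GC boxes and 2 E-boxes at 65.2% GC, so the motif count of Chrna5 depends on the start chosen. That window and those of Chrnb4 and Chrnb1 overlap annotated exons and are not printed. The Chrnb4 window held 0 GC boxes and 2 E-boxes at 61.2% GC. The window of the muscle gene Chrnb1 held 4 GC boxes and 3 E-boxes at 60.4% GC, so the muscle genes differed from each other in GC boxes. The GC content was 63.2% for Chrna3, 40.0% for Chrna5 and 50.8% for Chrna1, beside a median of 52.4%. Among 32851 such windows of all genes, 66.2% held an E-box, 12.2% held at least 3, and 32.7% held a GC box, so E-box matches alone are common. A match is a description of the letters and not of a bound site.

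Other receptor genes were lower than 1 TPM. Of the 8 other nicotinic subunit genes 0 reached 1 TPM in both libraries. Chrna2 had the highest mean of these, at 0.09 TPM in replicate 1, against 0.31 TPM in replicate 2, the single member of this list with enough counts for the test, and it was lower in replicate 1 (log2 ratio -1.96, adjusted p = 0.000138, exact binomial test). Chrna6 had 0 counts in both libraries, for which the floor of 3 counts stands at 0.031 TPM in replicate 1. The remaining muscle genes Chrnd, Chrne, the adult epsilon subunit, and Chrng, the fetal gamma subunit, had 5, 4 and 1 counts in replicate 1 and 0 each in replicate 2. Of the 3 other muscarinic genes 0 reached 1 TPM, and 0 of the 2 tested passed. Chrm1 was at 0.46 and 0.49 TPM, Chrm2 at 0.02 and 0.04 TPM, and Chrm5 had 0 counts in both libraries.

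Genes that handle acetylcholine differed in level between those that make or transport it and those that break it down. Chat, Slc18a3 and Slc5a7 had too few counts for the test. Of the 4 tested, Ache, Bche, Colq and Prima1, 1 was higher in replicate 1 and 1 lower under TMM. With total counts or spike-ins 2 were higher and 1 lower. Among all tested genes 38.9% were called under TMM, 55.7% with total counts and 64.1% with spike-ins. Chat, the synthesising enzyme, and Slc18a3, its vesicular transporter, had 0 counts in replicate 1 and 1 count in replicate 2, and the choline transporter Slc5a7 had 1 and 0. Ache, acetylcholinesterase, was at 3.06 and 2.16 TPM and higher in replicate 1 (log2 ratio 0.39, adjusted p = 0.0214, exact binomial test). Bche, a cholinesterase also made in liver and released to plasma, was at 2.10 and 10.3 TPM and lower in replicate 1 (log2 ratio -2.46, adjusted p = 1.77e-256, exact binomial test). All 6 liver markers were lower in replicate 1 as well, and the part of liver tissue in the Bche value was not tested. Prima1, which anchors acetylcholinesterase to neuronal membranes, was at 0.95 and 0.76 TPM, and Colq, its collagen tail in muscle, at 0.11 and 0.01 TPM.

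Of 5 chaperones and binding proteins of nicotinic receptors, Tmem35a, Lynx1 and Ric3 were more abundant than each receptor gene measured, and Lypd1 and Ly6h were below Chrna7 and Chrna3. Tmem35a, the chaperone NACHO, was at 72.3 TPM in replicate 1, against 38.5 TPM in replicate 2. Lynx1, a membrane-anchored modulator of nicotinic channels, was at 34.8 and 28.6 TPM, and Ric3, a chaperone of alpha7, at 13.1 and 10.6 TPM. All 8 nicotinic members together held 15.01 and 12.08 TPM. Of the 5 genes of this list, 4 were higher in replicate 1 and 0 lower under TMM, with a median log2 ratio of 0.59. Among all tested genes 17.6% were called higher and 21.3% lower. Lypd1 was among the 4 at 2.04 and 1.06 TPM, and Ly6h did not pass at 0.48 and 0.20 TPM.

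At the neuromuscular junction agrin, its receptor Lrp4, the kinase Musk and the adaptor Dok7 cluster muscle receptors through rapsyn. Agrn was at 15.7 and 14.7 TPM in replicates 1 and 2 and Lrp4 at 2.05 and 2.09 TPM, both lower in replicate 1 under TMM. That direction depends on the scaling: Agrn was at a log2 ratio of 0.07 by total counts and 0.19 by spike-ins, and Lrp4 at -0.06 and 0.07. Dok7, at 5.08 and 1.94 TPM, and Musk, at 0.35 and 0.10 TPM, were higher there, beside the muscle markers, whose part was not tested. Rapsn, at 0.54 and 0.68 TPM, did not pass, and the median of the 5 genes was -0.17.

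G proteins and effectors used by muscarinic receptors were present throughout: 11 of 12 reached 1 TPM in both libraries, all except Plcb2. Gnai2 was highest, at 74.6 TPM in replicate 1, against 63.7 TPM in replicate 2, followed by Gnai3 at 48.5 and 36.4 TPM and the inositol trisphosphate receptor Itpr1 at 47.7 and 37.4 TPM. Of the 12 genes 5 were higher in replicate 1 and 0 lower under TMM, with a median log2 ratio of 0.08. With total counts and with spike-ins 11 were higher. Of all tested genes, 38.9% were called under TMM, 55.7% with total counts and 64.1% with spike-ins. The median log2 ratio of genes at a mean of 1 TPM or more was 0.25 with total counts and 0.37 with spike-ins. Plcb1, a phospholipase C activated by Gq, was among the higher genes at 27.9 and 18.6 TPM. These genes serve many receptors besides the muscarinic ones.

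**Figure D4:**
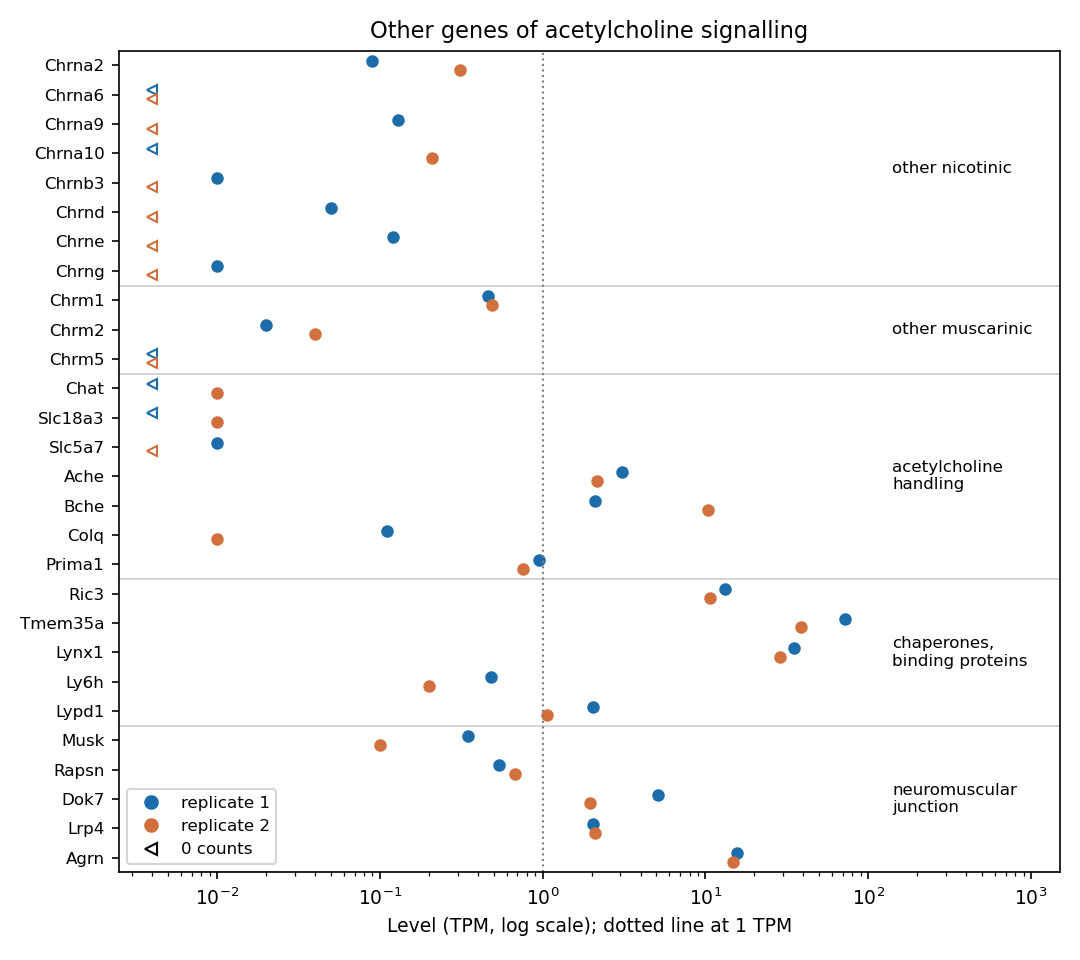
Levels in TPM on a log axis of other nicotinic and muscarinic genes and of genes that handle acetylcholine or its receptors, with replicate 1 in blue and replicate 2 in orange. Open triangles at the left edge are libraries with 0 counts and stand at no measured level. Tmem35a, at 72.3 and 38.5 TPM, is furthest right.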

How the data were processed

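Total RNA (300 ng per library) from 2 adrenal samples was sequenced with ERCC spike-ins, per the labels. Replicate numbers are those of the labels. Per the text files deposited with the samples, all tables use mm10 and annotation M21. The first quantification started from a transcriptome alignment, and the second from reads. The sources used here give no tool, version or strand use. The deposited first tables hold the authors' expected counts, TPM and percent of gene TPM per transcript, and the second the authors' estimated counts and TPM, which were summed per gene.

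The members and lists were chosen with earlier results of these data known. All genes of 6 lists besides the members were read, with 6 lists of cell type markers. From lists of more than 5 genes the highest and those at 0 are named, and the choice of middle examples was made after their values were seen. No gene is named for a similar pattern, since 2 libraries give 1 ratio per gene.

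Expected counts were rounded, and library totals of annotated genes were scaled by TMM (edgeR 4.0.16), with DESeq2 1.42.0 size factors, total counts and spike-ins as alternatives. Genes with at least 10 counts were tested by an exact binomial test with Benjamini-Hochberg adjustment. No edgeR or DESeq2 test was run, because there are no residual degrees of freedom. The test was checked on simulated data. Spike-ins held 0.839% and 0.915% of counts and other unnamed entries 2.3e-05% and 1.9e-05%. For a count of 0 a floor of 3 counts was used, which is below the upper limit of 3.69 in the 95% exact Poisson interval. Figures were drawn with matplotlib 3.10.9.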

Additional observations from a re-analysis of the deposited data

How the results depend on the processing

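The log2 ratio of the Chrna3 cluster over the muscle subunits stayed above 0 under each alternative run. It was 2.20 with posterior mean TPM, 1.75 with 1 TPM added to each sum, 3.78 on expected counts, which ignore length, and 3.20 with protein-coding transcripts alone, which was chosen after seeing the data. It ranged from 2.42 to 2.75 when either library was left out. With subunits of at least 1 TPM only, no value could be had, since neither muscle subunit reached it. The number of members at 1 TPM or more was 8 when TPM was taken over nuclear protein-coding genes, 7 in the second quantification and 6 with posterior mean TPM. It was 4 with protein-coding transcripts alone and 5 to 6 with either library left out. Lowering the threshold to 0.1 TPM gave 9. The share of nuclear protein-coding genes, 54.1%, is given for the main setting only, so these counts have no such share beside them. The number of members passing between the libraries was 5 with total counts, 7 with ERCC spike-in totals and 1 with all genes of at least 1 count. In these settings 55.7%, 64.1% and 27.7% of all tested genes were called. The sign of the ratio was reversed with total counts for Chrna3 (0.11) and Chrna5 (0.11), and with spike-in totals for Chrna3 (0.24), Chrna5 (0.24), Chrnb4 (0.081) and Chrm4 (0.12). DESeq2 size factors changed no call. Chrnb4 passed in the second quantification as lower in replicate 1 (log2 ratio -0.32, adjusted p = 0.0326, exact binomial test), and there Chrna1 did not pass. All 10 levels moved by more than their SD in the second quantification and over protein-coding genes. No paired analysis was possible because there is 1 group. With 2 libraries, a spread is known only roughly, and members with at most 54 counts in a library (Chrna5, Chrna1, Chrnb1 and Chrm4) are limited by depth.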
